A study of Homo sapiens and Mus musculus with 33 samples.

Results

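The transcriptome of mouse colon epithelium at baseline was measured by RNA-seq in 3 libraries, 1 from each of 3 mice, out of the 33 libraries of the series. The members were all genes of the deposited colon count table, which holds 25965 genes, and a gene was taken as expressed where it reached at least 1 CPM (its count scaled to the library total, with no further normalisation) in each of the 3 libraries. By this rule 12179 genes were expressed. The series was made to study crotonylation of histone H3 at lysine 18 (H3K18cr), and its other libraries are ChIP-seq of the same tissue and RNA-seq and ChIP-seq of a human colon carcinoma cell line. The mice were male and of C57BL/6 background, kept specific pathogen-free with free access to food. The labels name no treatment and no allele for them, and their ages are not given in the sources used here. Colons were opened, the epithelium was shaken off in EDTA and passed through strainers, and polyadenylated RNA was selected. The preparation is therefore a mixture of all cells that detach with the epithelium and was not sorted, so that in these bulk values fewer cells of a type and less RNA per cell cannot be told apart. All 3 libraries belong to 1 group, and what can be tested is only how much they differ from each other.

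The colon epithelium is a single sheet folded into crypts. Stem cells at the crypt base feed dividing progenitors, which become absorptive colonocytes, mucus-producing goblet cells, hormone-producing enteroendocrine cells and chemosensory tuft cells. Colonocytes take up water, salts and the short-chain fatty acids made by gut bacteria, and goblet cells lay down the mucus gel that keeps bacteria at a distance.

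The 4 markers of colon epithelium were all expressed in every mouse. Levels are compared between genes as TPM, in which each count is divided by the summed exon length of the gene and scaled to a common total. Agr2, a protein disulfide isomerase needed for mucin folding in goblet cells, was at 7010, 9106 and 7320 TPM in mice 1, 2 and 3. Lgals4, a galectin of gut epithelium, was at 4837, 4678 and 4812 TPM. These were among the highest of all nuclear genes, and the 3 mice lay close together. Car1, a carbonic anhydrase of colonocytes, was at 3541, 2275 and 2840 TPM, and Krt20, a keratin of differentiated surface cells, at 361, 337 and 188 TPM. The highest mouse exceeded the lowest 1.11 times for Lgals4 and 1.87 times for Krt20, in CPM normalised between libraries. The sex stated for the mice was also met by the libraries: Eif2s3y, Ddx3y, Kdm5d and Uty on the Y chromosome were expressed in all 3, and Xist, the RNA of the inactive X, had 0, 3 and 0 counts.

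The promoters of these 4 markers are shown because they hold different short elements in the window before the start of transcription. The 250 bases before the RefSeq start (GRCm38.p6) are printed 5′ to 3′ on the strand of the gene, and capitals mark TATAAA or CATAAA, searched on both strands without overlap between the 2 motifs.
Lgals4 (chr7:28833544-28833793, plus strand): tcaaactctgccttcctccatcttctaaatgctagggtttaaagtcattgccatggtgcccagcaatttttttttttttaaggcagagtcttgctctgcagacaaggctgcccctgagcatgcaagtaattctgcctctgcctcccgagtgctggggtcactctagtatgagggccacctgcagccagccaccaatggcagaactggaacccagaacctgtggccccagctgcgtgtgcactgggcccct
Agr2 (chr12:35992675-35992924, plus strand): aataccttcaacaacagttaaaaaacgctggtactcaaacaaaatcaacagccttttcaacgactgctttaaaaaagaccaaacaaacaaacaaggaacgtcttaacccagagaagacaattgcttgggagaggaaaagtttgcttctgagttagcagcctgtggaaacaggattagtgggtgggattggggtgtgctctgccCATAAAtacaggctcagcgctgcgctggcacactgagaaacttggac
Krt20 (chr11:99438154-99438403, minus strand): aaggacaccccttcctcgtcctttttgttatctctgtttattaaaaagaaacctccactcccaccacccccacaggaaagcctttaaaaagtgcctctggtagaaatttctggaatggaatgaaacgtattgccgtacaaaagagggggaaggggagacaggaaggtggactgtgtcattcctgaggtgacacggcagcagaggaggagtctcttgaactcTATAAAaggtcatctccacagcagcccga
Car1 (chr3:14778461-14778710, minus strand): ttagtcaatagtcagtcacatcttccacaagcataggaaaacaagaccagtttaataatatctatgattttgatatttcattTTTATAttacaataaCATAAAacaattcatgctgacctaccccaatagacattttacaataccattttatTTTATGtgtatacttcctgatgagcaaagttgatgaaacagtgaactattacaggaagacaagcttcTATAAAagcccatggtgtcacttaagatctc
The letters TATAAA stood at -29 to -24 of Krt20 and at -31 to -26 of Car1, counted back from the base before the start, and CATAAA at -47 to -42 of Agr2. These positions depend on the start chosen: the RefSeq start lay 60 bases from the nearest GENCODE M21 start for Lgals4, 18 for Agr2, 3 for Krt20 and 1 for Car1. Car1 held TATAAA also on the other strand at -168 to -163, and CATAAA at -153 to -148 and, on the other strand, at -98 to -93. Neither motif was in the Lgals4 window. TATAAA was in 11.4% of the 19957 promoter windows of protein-coding genes, in 6.02% of those of expressed genes, and in 15.0% of those of the 100 genes with the highest mean TPM. CATAAA was in 9.05% of all windows. These are matches of letters and no evidence of a bound factor.

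The libraries held 8166406, 10707901 and 9701476 counts in genes. In pairs of libraries, log CPM correlated across 12701 genes with Pearson coefficients between 0.981 and 0.984, and genes are not independent replicates. The common biological coefficient of variation between mice was 11.5%. The deposited counts did not advance 1 by 1 at low values. Of the values from 1 to 25, between 79.6% and 81.8% per library fell on the 13 values of a step of 1.87. The cause was not tested, and the counting error of a deposited count is therefore not known. Tests of the spread are also given on counts divided by that step, an alternative added after the data were examined.

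Of the 25965 genes, 9274 had 0 counts in all 3 libraries. Of 21204 protein-coding genes 11746 were expressed, against 227 of 3342 long noncoding genes and 142 of 933 pseudogenes. The median of expressed genes was 24.2 TPM. Mean TPM reached 1000 in 93 expressed genes, lay between 100 and 1000 in 1695, between 10 and 100 in 7085 and between 1 and 10 in 3094 expressed genes. Counts were concentrated: 1021 genes made up 50% of all counts and 5830 genes 90%. The 100 genes with most counts took 19.7%, 19.3% and 21.7% of the counts of mice 1, 2 and 3. A gene with no count in a library can have been present at up to 0.687, 0.524 or 0.578 CPM there, the level of 3 steps of 1.87 counts, and this covers counting error only.

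Eef1a1, the translation elongation factor that carries transfer RNA to the ribosome, was the highest nuclear gene at 8226 ± 397 TPM (SD, n = 3). It was followed by Mptx1, a mucosal pentraxin, at 5531, 4022 and 14904 TPM, with mouse 3 far above the other mice. Agr2 and Spink4, a Kazal-type peptide of goblet cells, came next, Spink4 at 5300, 7485 and 8764 TPM. Klk1, a kallikrein protease, was at 7035 ± 519 TPM, and Lypd8, a surface protein that binds flagella and holds bacteria off the colon epithelium, at 6280, 4664 and 4546 TPM. Pigr, which carries IgA through the epithelial cell, was at 4615 ± 83.1 TPM, and Tff3, the trefoil peptide secreted with mucus, at 4342 ± 555 TPM. Muc2, the gel-forming mucin of the colon, was at 2930, 5583 and 4220 TPM, and the goblet lectin Zg16, which binds Gram-positive bacteria, at 5047, 4161 and 2782 TPM. The other members of the 20 highest were Rplp1, Rplp0, Rps15 and Rpl8 of the ribosome, Eef2, Lgals4, the keratins Krt19 and Krt8, Oit1 and Sycn. Together the 20 genes made up 9.56%, 10.1% and 10.7% of all TPM. Their order is loose: all 19 neighbouring pairs in the order of means had overlapping ranges over the mice. Of the 20 genes, 1 (Mptx1) was called variable between mice, a call made for 1.74% of all tested genes by the rule given with the spread between mice, and the others differed by 1.81 times or less between the highest and the lowest mouse.

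**Figure D1:**
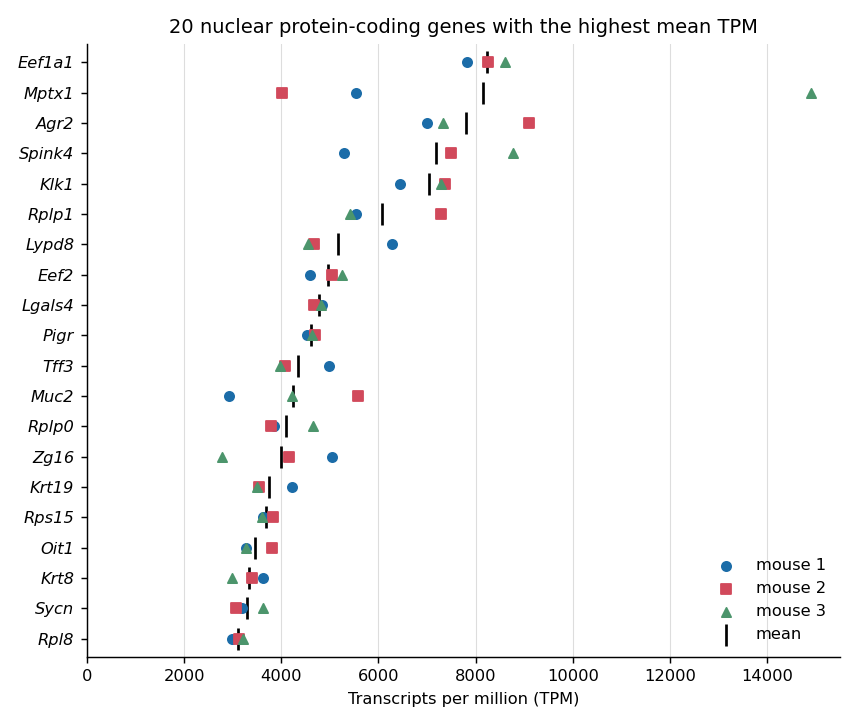
Level in TPM (axis from 0) of the 20 nuclear protein-coding genes with the highest mean, with 1 point for each of the 3 mice and a tick for the mean. Most genes have their 3 points close together, while those of Mptx1 run from 4022 to 14904 TPM.

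Mitochondrial genes took 4.52%, 3.48% and 5.19% of counts, lowest in mouse 2. The subunit mt-Co1 of cytochrome oxidase was the highest of all genes at 49964, 37851 and 54799 TPM, and mt-Cytb was at 18561 ± 3172 and mt-Nd1 at 15100 ± 1994 TPM (SD, n = 3). Other subunits read from the same mitochondrial genome were far lower in the table, with mt-Co2 at 38.5, mt-Atp6 at 30.9 and mt-Co3 at 25.1 TPM. Uniquely mapped reads alone were counted, and parts of the mitochondrial genome have copies in nuclear DNA, so these levels are uncertain. The same limit holds for the 84 ribosomal protein genes, many of which have processed pseudogenes. Of these, 80 were expressed at a median of 183 TPM over all 84, and they took 2.25% ± 0.108 of counts.

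Genes shared by all epithelial cells were high. All 14 were expressed, with a median of 864 TPM against 24.2 TPM for expressed genes. Besides Lgals4, the keratins Krt19 and Krt8 were at 3753 ± 402 and 3343 ± 324 TPM, and Epcam, an adhesion molecule of epithelia, at 2664 ± 195 TPM (SD, n = 3). The intestinal transcription factors Cdx1 and Cdx2 were at 925 ± 81.8 and 653 ± 79.5 TPM. The median ratio of the 14 genes between the highest and the lowest mouse, 1.16, was near the 1.19 of all tested genes.

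Both main lineages were represented in full, with all 16 genes of absorptive colonocytes and all 16 of goblet and deep crypt secretory cells expressed. The absorptive genes had a median of 366 TPM, and their sum was 19565, 15381 and 13807 TPM in mice 1, 2 and 3. Among them Guca2a, the gut hormone guanylin, was at 3691, 2862 and 2271 TPM and the membrane mucin Muc3 at 1717, 1380 and 976 TPM. Both were highest in mouse 1 and lowest in mouse 3, in TPM and in normalised CPM. The goblet genes had a median of 771 TPM and summed to 30481, 37974 and 38937 TPM, lowest in mouse 1. Their sum was therefore in the opposite order to that of the absorptive genes, a description over 3 mice with no test. This order was not particular to absorptive genes, as the pan-epithelial sum was 23835, 22192 and 20707 TPM. Single goblet genes did not all follow their sum: Zg16 and Tff3 were highest in mouse 1 and Muc2 in mouse 2. TPM are scaled to a common total, so the sums are not independent. The goblet regulators Spdef and Atoh1 were at 830 ± 184 and 406 TPM on average, and Kit, a receptor of deep crypt secretory cells, at 92.8 TPM.

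Rarer epithelial lineages were present at lower levels. Of 17 enteroendocrine genes 15 were expressed, led by Pyy at 366, 300 and 298 TPM and by Gcg, the precursor of glucagon-like peptides, at 229, 241 and 230 TPM. Chgb and Chga, which form secretory granules, were at 217 ± 19.2 and 156 ± 8.84 TPM (SD, n = 3). Insl5, a peptide of colonic L cells, was highest in mouse 1, at 252, 150 and 117 TPM. Of 14 tuft cell genes 12 were expressed at a median of 9.55 TPM, including Trpm5, the cation channel of taste transduction, at 17.8 ± 1.37 and Dclk1 at 9.36 ± 0.265 TPM. Of 17 stem and crypt base genes 16 were expressed. Lgr5, the R-spondin receptor of stem cells, was at 6.4 TPM, far under Slc12a2 at 280 ± 21.8 and Sox9 at 196 ± 24.2 TPM. The crypt base gene Olfm4 had 0, 25 and 3 counts and did not pass as expressed. All 18 proliferation genes were expressed, with Pcna, the clamp of DNA polymerase, at 142 ± 15.1 and Mki67 at 33.9 TPM.

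**Figure D2:**
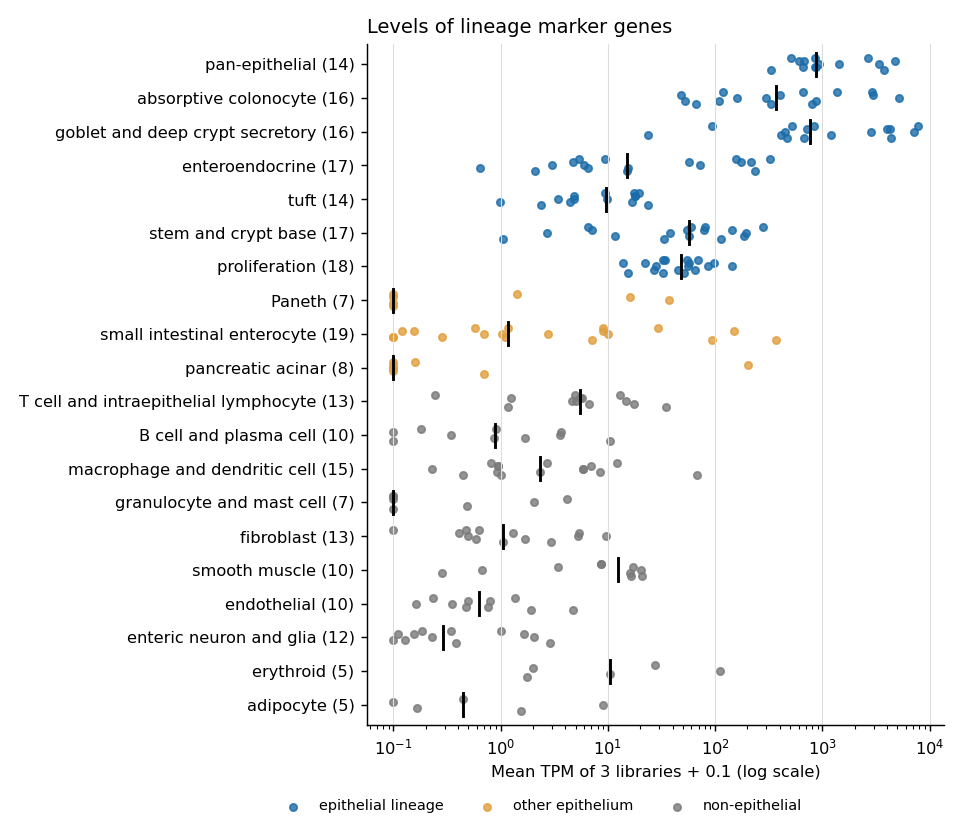
Mean TPM of the 3 mice plus 0.1 (log axis) for the genes of each cell type list, with 1 point per gene, the median of each list as a bar and the number of genes in parentheses. The pan-epithelial, goblet and absorptive lists have medians of 864, 771 and 366 TPM, while the non-epithelial lists have medians of 12.2 TPM or less.

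Defining genes of other gut epithelia were low or at 0, with a few exceptions. Of 7 Paneth cell genes, 2 (Itln1 and Mmp7) were expressed, 4 alpha-defensins were at 0 in every library and Lyz1 was at 1.33 ± 0.546 TPM. Of 19 genes of small intestinal enterocytes, 10 were expressed at a list median of 1.07 TPM. Fabp2, a fatty acid carrier, was at 450, 383 and 275 TPM and the glucose carrier Slc5a1 at 149 ± 5.64 TPM, while Sis, Lct, Apoa4 and Fabp1 lay below 1 TPM. Of 8 pancreatic acinar genes, 5 were at 0 and 1 was expressed: Clps, the cofactor of pancreatic lipase, at 140, 192 and 274 TPM. Prss2 had 3, 0 and 1 counts, and Pnlip, Cel, Ctrb1, Cela2a and Amy2a5 were at 0. Outside the list, and chosen after its values were seen, the lipase gene Pnliprp2 had 18, 64 and 154 counts, a range of 7.37 times, and was variable. Sycn, named above among the 20 highest, is known from zymogen granules of pancreas.

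Markers of non-epithelial cells were low. Of 100 such genes, 41 were expressed and 9 were at 0, with a median of 1.24 TPM, and they summed to 583, 535 and 611 TPM in mice 1, 2 and 3. For T cells and intraepithelial lymphocytes 10 of 13 genes were expressed, summing to 102, 111 and 130 TPM, with Ccl5 at 21.7, 41.7 and 41.1 TPM and Cd4 at 0.145 TPM. Smooth muscle genes, 8 of 10 expressed, summed to 126, 110 and 97.0 TPM. Of 15 macrophage and dendritic cell genes 7 were expressed, the highest being Cd14 at 67.3 ± 8.53 TPM, while Adgre1, the F4/80 antigen, was at 0.129 TPM. Fibroblast genes were expressed in 6 of 13 cases, with Col1a1 at 0.531 and Pdgfra at 0 TPM. Of the other lists, 1 of 10 genes was expressed for B and plasma cells, 0 of 7 for granulocytes and mast cells, 3 of 10 for endothelium, 2 of 12 for enteric neurons and glia, and 1 of 5 for adipocytes. Beta-globin Hbb-bs of red cells was at 119, 76.8 and 133 TPM.

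Barrier functions were strongly expressed. Of 22 genes of mucins and O-glycosylation 19 were expressed, with Muc13 at 1565 ± 73.0 TPM next to Muc2 and Muc3, while Muc5ac and Muc5b, the gel-forming mucins of stomach and airway, were at 0. Of 23 junction genes 22 were expressed. Cldn3 was at 1813 ± 95.6, Cldn7 at 1425 ± 156 and E-cadherin (Cdh1) at 677 ± 56.3 TPM, and the pore-forming claudins Cldn15 and Cldn2 at 605 ± 49.7 and 513 ± 55.8 TPM. Only Cldn1 of this list was not expressed, at 0.0219 TPM.

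Of 32 genes of ion and water transport 30 were expressed, with Atp1b1, a subunit of the sodium pump, at 1460 ± 110 TPM (SD, n = 3). Of the epithelial sodium channel, the subunits Scnn1a and Scnn1b were at 96.6 and 24.9 TPM and Scnn1g at 1.15 TPM. Cftr, the chloride channel of secretion, was at 97.6 and Slc26a3, the chloride and bicarbonate exchanger of absorption, at 107 TPM. The water channels differed, with Aqp1 at 615 ± 96.1, Aqp8 at 328 ± 151, Aqp4 at 164 and Aqp3 at 0 TPM.

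Of 18 genes of short-chain fatty acid uptake and oxidation 17 were expressed. Acads, which oxidises butyryl-CoA, was at 450, 455 and 424 TPM. In normalised CPM the 3 mice differed by 1.04 times. The carriers Slc16a1 and Slc5a8 were at 144 and 130 TPM and the receptor Ffar2 at 103 TPM, while Ffar3 was at 3.21 TPM and the butyrate receptor Hcar2 had 0 counts. Xenobiotic metabolism was expressed in 27 of 28 genes, with Cyp2c55 at 869 ± 136 and Sult1a1 at 789 ± 69.3 TPM, while Cyp1a1 was at 0.0380 TPM. The Ugt1a genes in this list share exons, and their single values are uncertain. All 16 genes of sterol and fatty acid synthesis and all 16 of folding and stress in the endoplasmic reticulum were expressed, with Calr at 1272 ± 62.2 and Hspa5, the chaperone BiP, at 592, 773 and 809 TPM.

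Of 32 epithelial transcription factors 30 were expressed at a median of 96.9 TPM. Hnf4a was at 554 ± 31.1, Klf5 at 484 and Klf4 at 462 ± 75.5 TPM. The repressor Prdm1 was at 0.475 TPM. Of 18 genes of position along the gut 13 were expressed. Hoxb13, the most posterior gene of its cluster, was at 233, 125 and 198 TPM, while Gata4, Pdx1 and Sox2 of small intestine, duodenum and foregut were at 0.600, 1.56 and 0 TPM. Among enzymes that add or remove acyl groups on histones, 24 of 25 genes were expressed, Hdac3 at 70.0 ± 2.51, Hdac1 at 58.1 ± 2.79 and Ep300 at 25.1 TPM.

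Of the 23 antimicrobial and inducible defence genes 16 were expressed, with a list median of 72.2 TPM. Among the low members, Lcn2, Nos2, Saa2 and Saa3 were at 0.347, 0.308, 0.291 and 1.10 TPM, and Cxcl1 and Cxcl5, chemokines for neutrophils, were at 0. Of 15 epithelial cytokines and chemokines 9 were expressed, and Il18 was the highest at 91.9 ± 7.34 TPM (SD, n = 3). Of 14 interferon response genes 11 were expressed at a median of 4.84 TPM, led by Irf7 at 76.2, 68.8 and 48.8 TPM. Of 7 genes of class II antigen presentation 6 were expressed, and Cd74 and H2-Ab1 were at 57.1 ± 10.2 and 21.8 ± 3.01 TPM.

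The deposited ChIP-seq peaks of the same tissue were set beside these levels. A gene was taken as marked where a peak lay within 1 kb of a start of 1 of its protein-coding transcripts. H3K4me3, the mark of active promoters, was at 92.9% and H3K18cr at 86.4% of 11709 expressed genes. At 6046 genes with 0 counts the shares were 17.9% and 2.51%. Genes counted but not expressed lay between, at 56.5% for H3K4me3 and 20.9% for H3K18cr. Of the 20 highest nuclear genes, 15 held H3K4me3 and 16 held H3K18cr. The lists were marked unequally, which was not tested: absorptive genes held H3K4me3 in 6 and H3K18cr in 15 of 16 cases and xenobiotic genes in 10 and 24 of 28, whereas stem and crypt base genes held them in 16 and 12 of 17 and proliferation genes in 18 and 11 of 18. Goblet genes held each in 8 of 16 cases. Median CpG counts of the promoter windows were 3 for absorptive, 2 for xenobiotic and 4.5 for goblet genes, against 19 for stem and 19 for proliferation genes and 16 for all expressed genes. The part of CpG content in the marks was not tested. The ChIP-seq libraries are not labelled as from the same mice, and the peaks were called once for all libraries of a mark, so no error between mice can be given.

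**Figure D3:**
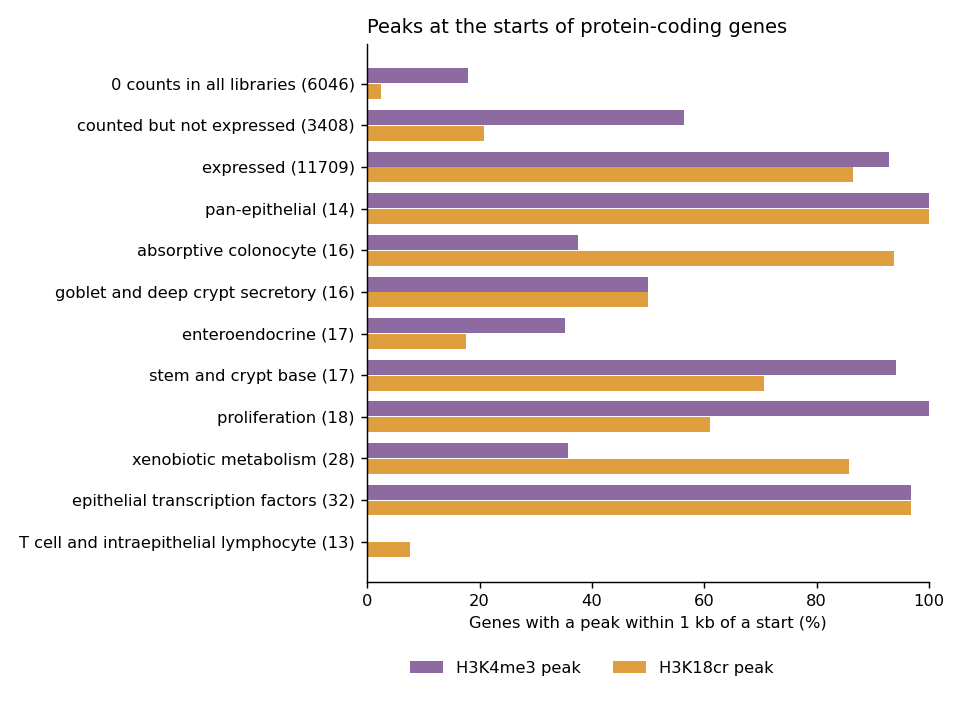
Percent of genes with an H3K4me3 or H3K18cr peak within 1 kb of a start, for protein-coding genes grouped by expression and for 9 cell type and function lists, with the number of genes in parentheses. The H3K18cr share rises from 2.51% at genes with 0 counts to 86.4% at expressed genes.

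Differences between the 3 mice were tested for each of the 10723 genes with a mean of at least 50 counts. A chi-square test asked whether the counts differed by more than counting error, with Benjamini-Hochberg adjustment over all 10723 genes. A gene was called variable where the adjusted p was under 0.05 and the highest mouse was at least 2 times the lowest in normalised CPM. Most genes differed little, with a median ratio of 1.19, a 95th percentile of 1.66 and a 99th percentile of 2.26. Of the tested genes, 4946 (46.1%) differed by more than counting error, and 3979 of those by less than 1.5 times. On counts divided by the step of 1.87, 2306 genes (21.5%) did. The rule called 187 genes variable, 1.74% of those tested, and 169 on counts divided by the step, where 0 of the 85 variable genes with a mean of at least 100 counts were lost. Of the 187 genes, 53 were highest in mouse 1, 54 in mouse 2 and 80 in mouse 3. A difference between mice here includes everything that differed between the animals and between the preparations, and these cannot be told apart with 1 library per mouse.

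**Figure D4:**
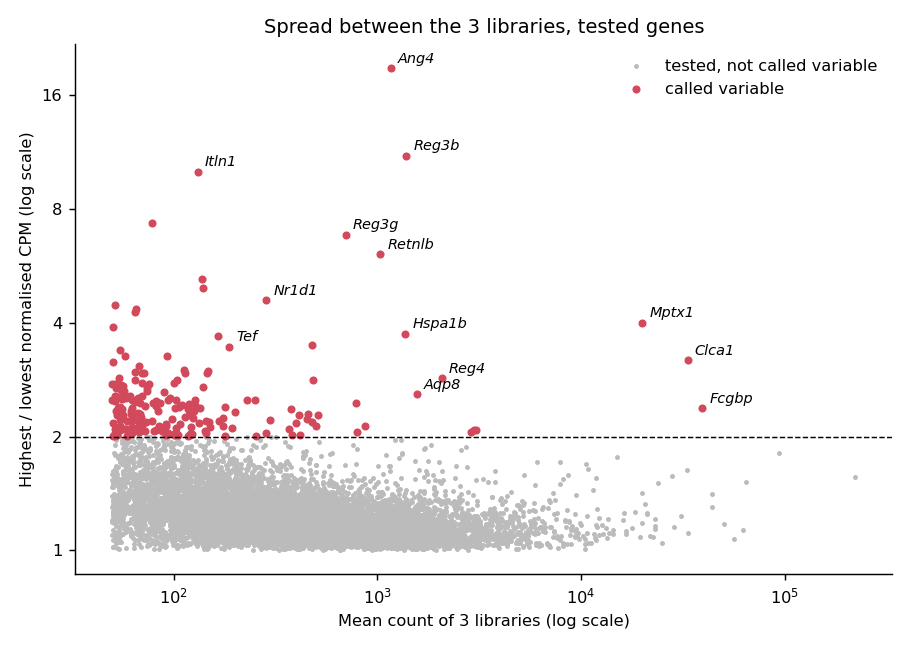
Ratio of the highest to the lowest mouse against mean count (both log axes) for the 10723 tested genes, with the 187 variable genes in red and a dashed line at the ratio of 2. The cloud narrows around its median of 1.19 as counts rise, and Ang4, at 18.9, is the highest of the named genes.

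Of the 587 listed genes with a match, 410 were tested and 32 (7.80%) were variable, against the 1.74% of all tested genes. As the lists and the genes in them were chosen with earlier results known, this is a description. The 32 genes were in 17 of the 40 lists, and 23 lists held none. The largest adjusted p among the 32, by the chi-square test with Benjamini-Hochberg adjustment, was 0.000833, and 0.0467 on counts divided by the step.

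The 5 genes with the largest ratios at a mean of at least 100 counts, Ang4, Reg3b, Itln1, Reg3g and Retnlb, all code for secreted defence proteins. Of the 14 tested antimicrobial and inducible defence genes 6 were variable, against 1.74% of all tested genes. Ang4, an angiogenin ribonuclease with antimicrobial action (chr14:51763878-51773590, GRCm38), had 118, 785 and 2588 counts in mice 1, 2 and 3. This was 14.4, 72.2 and 272 CPM after TMM normalisation between libraries, as for all CPM of single genes given here, an 18.9-fold range in which the 3 mice were well apart. Retnlb, a resistin-like protein of goblet cells with antibacterial action, had 271, 914 and 1909 counts, a 6.07-fold range. Itln1, a lectin for microbial sugars, had 24, 90 and 280 counts and a 10.0-fold range. All of these were lowest in mouse 1 and highest in mouse 3. Clca1, a protease that processes Muc2, had 14944, 29611 and 55206 counts (3.18-fold), and Fcgbp, the IgG Fc-binding protein of mucus, 20347, 41696 and 56094 counts (2.37-fold). Both were again lowest in mouse 1 and highest in mouse 3, at far higher levels. Reg4, a lectin of deep crypt secretory cells, and Mptx1 were also highest in mouse 3 but lowest in mouse 2, Mptx1 at 1422, 983 and 3932 CPM. The largest adjusted p among these 7 genes, that of Itln1, was 1.35e-55 by the chi-square test with Benjamini-Hochberg adjustment. On counts divided by the step it was 4.59e-29 by the same test. Spink4 was lowest in mouse 1 and highest in mouse 3, with a ratio of 1.70 that was not called. Some goblet genes had another order: Muc2 differed 1.81 times and was highest in mouse 2, Tff3 1.29 times and Zg16 1.77 times, both highest in mouse 1. Ang4, Itln1, Retnlb and Mptx1 have close relatives in the mouse genome, and reads that match several are not in the table.

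Reg3b and Reg3g, C-type lectins that kill bacteria and are induced by them, followed a different pattern. Reg3b (chr6:78370885-78373466) had 275, 3586 and 284 counts, which is 33.5, 330 and 29.8 CPM. Reg3g (chr6:78466269-78468872) had 184, 1668 and 244 counts, which is 22.4, 153 and 25.6 CPM. Mouse 2 stood alone in both, 11.1 and 6.84 times above the lowest, while mice 1 and 3 were near each other. The promoters of both are shown because the same mouse was highest in each. Capitals mark TATAAA and CATAAA as before.
Reg3b (chr6:78370635-78370884, plus strand): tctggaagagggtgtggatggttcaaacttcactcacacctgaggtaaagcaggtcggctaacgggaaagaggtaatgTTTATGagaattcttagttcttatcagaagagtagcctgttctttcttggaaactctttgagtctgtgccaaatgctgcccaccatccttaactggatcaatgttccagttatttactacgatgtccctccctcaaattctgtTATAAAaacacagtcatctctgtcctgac
Reg3g (chr6:78468875-78469124, minus strand): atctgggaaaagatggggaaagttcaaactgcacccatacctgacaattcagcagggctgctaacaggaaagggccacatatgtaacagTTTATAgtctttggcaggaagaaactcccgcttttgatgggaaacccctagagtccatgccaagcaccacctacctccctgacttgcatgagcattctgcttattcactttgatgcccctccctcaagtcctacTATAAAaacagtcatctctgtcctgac
TATAAA stood at -29 to -24 of Reg3b and at -27 to -22 of Reg3g, and 33.2% of positions were identical without gaps, with a longest shared run of 20 bases. As no gap was allowed, stretches that both windows hold at shifted positions, such as this TATAAA, count as different in that share. Reg3g held TATAAA also on the other strand at -161 to -156, and Reg3b held CATAAA there at -172 to -167. Among all variable genes 13.2% of windows held TATAAA, against 5.70% of tested genes not called variable. The variable genes also had fewer CpG in the window, a median of 11 against 17, and the shares with a peak within 1 kb were 68.6% against 95.8% for H3K4me3 and 58.1% against 90.8% for H3K18cr. None of these shares was tested, as the variable genes were chosen from the counts. The 2 groups were also not matched for level, and 85 of the 187 variable genes had a mean of at least 100 counts. The part of expression level in these shares was not tested. Saa1, an acute phase protein, was at 423, 498 and 224 TPM with a range of 2.06 times. Unlike Reg3b and Reg3g, it was low in mouse 3, while mice 1 and 2 differed by 1.12 times.

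**Figure D5:**
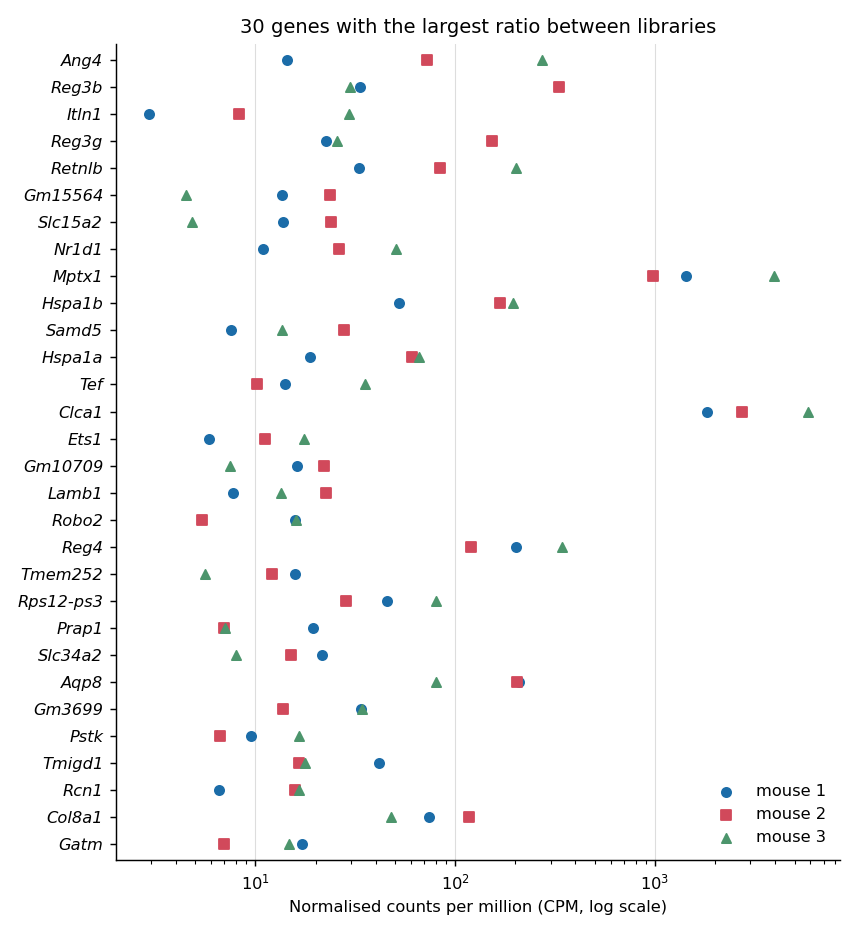
Normalised CPM (log axis) in each of the 3 mice for the 30 variable genes with the largest ratio among those with a mean of at least 100 counts. Ang4, Retnlb, Itln1 and Clca1 are highest in mouse 3, whereas Reg3b and Reg3g are high in mouse 2 alone.

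Of 13 tested clock genes 4 were variable, against 1.74% of all tested genes, with ranges of 2.29 times or more. Their largest adjusted p, that of Dbp, was 2.68e-20 by the chi-square test with Benjamini-Hochberg adjustment. On counts divided by the step it was 2.02e-10 by the same test. Nr1d1, the repressor REV-ERB alpha, had 90, 285 and 479 counts, and Nr1d2, its relative, 260, 416 and 692 counts. The output factors Dbp and Tef had 26, 38 and 129 and 116, 111 and 336 counts. All 4 were highest in mouse 3. The activator Arntl ran the other way at 22.6, 16.4 and 14.6 TPM, as did Cry1 at 25.1, 16.8 and 13.7 TPM, but neither reached the ratio of 2. The remaining tested clock genes were not called variable, and their order over the mice is not given here. Clock itself was at 31.3 ± 2.83 TPM (SD, n = 3). The hour at which each mouse was taken is not given in the sources used here, and its part in these differences was not tested.

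All 15 immediate early and heat shock genes were expressed, and 3 of 14 tested were variable, against 1.74% of all tested genes. Hspa1b, an Hsp70 chaperone, had 427, 1829 and 1854 counts (3.74-fold), and Hspa1a had 154, 658 and 626 counts (3.50-fold). Their windows are shown because the genes are near copies of each other. Capitals mark GAANNTTC, the core of a heat shock element, which reads the same on both strands.
Hspa1a (chr17:34972157-34972406, minus strand): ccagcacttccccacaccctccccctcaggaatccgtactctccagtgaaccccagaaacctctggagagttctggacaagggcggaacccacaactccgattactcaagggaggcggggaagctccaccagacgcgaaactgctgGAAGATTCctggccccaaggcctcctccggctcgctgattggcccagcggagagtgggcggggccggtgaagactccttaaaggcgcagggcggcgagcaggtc
Hspa1b (chr17:34959239-34959488, minus strand): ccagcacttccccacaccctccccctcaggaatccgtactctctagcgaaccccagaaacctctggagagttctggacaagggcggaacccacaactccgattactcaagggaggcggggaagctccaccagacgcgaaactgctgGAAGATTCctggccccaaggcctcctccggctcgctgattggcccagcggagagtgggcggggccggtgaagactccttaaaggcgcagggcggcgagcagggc
The windows were 98.8% identical and held the motif at -104 to -97, against 5.82% of all windows. It was also in the windows of Krt20 and Reg3g, where it is not in capitals. Reads that match both Hspa1a and Hspa1b were not counted, so the split between them is uncertain. Of the other heat shock genes, Hsph1 was at 76.0, 150 and 134 TPM and Dnajb1 at 80.0, 117 and 105 TPM, lowest in mouse 1 but with ranges of 1.88 and 1.38 times. The immediate early genes Fos, Jun and Ier2, which rise within minutes of a stimulus, differed by less than the ratio of 2, and Atf3 by 2.13 times with mouse 3 lowest.

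Of the absorptive genes, 2 of 16 tested were variable, against 1.74% of all tested genes. Aqp8, a water channel of surface colonocytes, was at 409, 421 and 154 TPM, low in mouse 3 alone, and Tmigd1, an adhesion protein, at 86.2, 36.2 and 35.7 TPM, high in mouse 1 alone. Atp12a, the colonic proton and potassium pump, was also lowest in mouse 3, at 43.6, 39.5 and 21.1 TPM, and Areg, a ligand of the EGF receptor, was lowest there too, at 40.9, 45.3 and 17.3 TPM. Krt23 was lowest in mouse 2, at 27.6, 14.4 and 25.6 TPM. Insl5 and Apob, the latter the core protein of chylomicrons, were highest in mouse 1 with ranges of 2.10 and 2.28 times, and so was Pdk4, a fasting-induced kinase, with 2.46 times. Neurod1, a factor of enteroendocrine progenitors, had a range of 3.16 times and Tnfrsf19 of crypt base cells of 2.04 times, both lowest in mouse 1. Neurod1 had only 18, 67 and 66 counts, a mean of 50.3 near the limit for testing. It lost the call whichever mouse was left out.

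Markers of other cells were among the variable genes too. The T cell genes Cd8a and Cd3e were at 4.48, 5.54 and 9.53 and at 2.88, 4.50 and 7.17 TPM, highest in mouse 3. The muscle genes Tagln and Des were at 26.5, 21.3 and 12.8 and at 23.1, 11.4 and 13.0 TPM, highest in mouse 1, and alpha-globin Hba-a1 was lowest in mouse 2. In all, 5 of the 22 tested non-epithelial markers (22.7%) were variable, against 1.74% of all tested genes. Clps had 225, 389 and 527 counts. With total counts in place of TMM, the ratios of Hba-a1 (1.99) and Clps (1.97) fell just under 2, and both lost the call. The part of such cells in the other differences was not tested.

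Among variable genes with a mean of at least 100 counts, the 30 with the largest ratios included others of varied function. Those highest in mouse 2 were Slc15a2, a peptide carrier, with 113, 260 and 46 counts, the antisense gene Gm15564, Samd5, Lamb1, Col8a1 and the pseudogene Gm10709. Those highest in mouse 3 were Ets1, Pstk and Rps12-ps3. Robo2 and Gm3699 were low in mouse 2 and Rcn1 was low in mouse 1, with the other mice close together. Those highest in mouse 1 were Tmem252, Prap1, Slc34a2, a phosphate carrier with 177, 164 and 76 counts, and Gatm, an enzyme of creatine synthesis with 140, 76 and 141 counts. The ratios of all 30 were 2.44 or more, and their largest adjusted p by the chi-square test with Benjamini-Hochberg adjustment was 3.10e-08, or 0.000338 on counts divided by the step.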

How the data were processed

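Polyadenylated RNA of 3 colon epithelium preparations was sequenced. The authors deposited raw counts of reads per gene; reads were trimmed with Trim Galore 0.4.2 and aligned with HiSat2, and SEQMONK counted those with a unique position. The submitters' processing notes also list TopHat2 2.0.12, Bowtie2 2.2.5 and GRCm38. The annotation release and the use of strand are not given in the sources used here. In the deposited tables of ChIP-seq, each peak has a scaled signal, which was used only to rank peaks for 1 alternative, while the results rest on peak positions. The tables of the human cell line were not used.

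Genes were matched to GENCODE M21 for exon lengths and biotypes (22631 by name and position, 2877 by position, 457 unmatched). The design written beforehand was followed. Counts were scaled with TMM (edgeR 4.0.16, R 4.3.3), and spread between mice was tested with a chi-square test on 2 degrees of freedom. The test was checked on simulated counts with 200 changed genes. Those counts held counting error alone, without the step of 1.87 or other variation between mice, so the check covers neither. DESeq2 1.42.0 size factors, other filters and left-out libraries were alternatives. Other steps used Python 3.11.15, numpy 2.4.6, pandas 2.3.3, scipy 1.17.1, pysam 0.24.0 and matplotlib 3.10.9. RefSeq starts (GRCm38.p6) gave promoter windows for 19957 protein-coding genes.

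The members and the 40 gene lists (594 genes, of which 7 are not analysed here) were chosen with earlier results of these data known. Named were the 4 markers, the 20 nuclear protein-coding genes with the highest mean TPM, up to 4 highest genes, variable members and defining markers near 0 of each list, and the 30 variable genes with the largest ratio at a mean of at least 100 counts. Some other list members were named after their values were seen. A few genes are not reported here.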

Additional observations from a re-analysis of the deposited data

How the results depend on the processing

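No paired analysis was possible because the 3 libraries form 1 group. The count of expressed genes (12179) stayed between 12108 and 16691 under the other limits tried. The share of counts in the top 100 genes, 20.2%, was 17.1% without mitochondrial genes and 31.8% in TPM. The 187 variable genes were 186 with total counts, 187 with DESeq2 size factors, 967 at a ratio of 1.5, 24 at a ratio of 3, 695 at a mean of at least 10 counts, 35 at 200 counts, 1219 with no filter and 73 to 90 with 1 library left out, where fewer pairs of mice can differ. Genes past counting error, 4946, were 5060 with total counts, 4948 with DESeq2, 2306 on counts divided by the step (chosen after seeing the data) and 2822 to 3285 with 1 library left out. The H3K4me3 share of expressed genes, 92.9%, was 93.4% within 2 kb and 87.1% with the higher 50% of peaks, and the H3K18cr share, 86.4%, was 87.1% and 64.7%. Of the 49 variable genes among the 30 with the largest ratios and the lists, 3 (Hba-a1, Krt23 and Clps) fell just under a ratio of 2 with total counts, and 24, 17 and 29 lost the call without mouse 1, 2 and 3. Other variable genes named after their values were seen were not followed over the settings. The mouse that was highest was not compared between settings. A count of 0 at these depths allows a level of up to 0.524 to 0.687 CPM, that of 3 steps of 1.87 counts.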

Other observations

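Ligands and receptors of the crypt were expressed in 23 of 25 cases. Ihh, the hedgehog ligand of differentiated colonocytes, was at 140, 162 and 152 TPM, and Erbb3 and Erbb2, partners in growth factor signalling, at 167 and 132 TPM on average. Lgr4, an R-spondin receptor, was at 100 ± 8.17 TPM (SD, n = 3), and the Notch ligands Dll4 and Dll1 at 31.5 and 23.5 TPM. Keratins were expressed in 7 of 11 cases, with Krt7 at 150 ± 1.53 TPM and Krt5 and Krt14 of stratified epithelia at 0 and 0.387 TPM. Of 11 fasting and PPAR target genes 9 were expressed, with Acadl at 176 ± 18.6 and Cpt1a, the gate of mitochondrial fatty acid uptake, at 134 ± 10.8 TPM.

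Some variable genes outside the lists, chosen after their values were seen, had the same mouse on top as genes described above. With Reg3b and Reg3g, mouse 2 was highest for the stress gene Nupr1 (2270, 4712 and 1981 counts), the metallothionein Mt2 (317, 803 and 321 counts) and Slfn4 (121, 303 and 111 counts). With Cd8a and Cd3e, mouse 3 was highest for the leukocyte genes Cd7 (61, 119 and 160 counts), Laptm5 (50, 117 and 138 counts) and Coro1a (68, 125 and 158 counts).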
